A study of Homo sapiens with 14 samples.

Results

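KO1 and KO2, the pair of KMT2D-KO lines of this RNA-seq study, were set against each other in high glucose. The members are the 4 libraries labelled for these lines and this condition, 2 of KO1 and 2 of KO2, out of 14 libraries in all and 7 in glucose. Both lines were made from SCC23, a human cell line of head and neck squamous cell carcinoma (HNSCC), by transfection of a plasmid that carries Cas9, GFP and a guide against KMT2D. KO1 received sgKMT2D-1 and KO2 received sgKMT2D-2, and the WT cells received a guide against LacZ, a bacterial gene. GFP-positive cells were sorted and grown in high-glucose medium with serum, and no cloning of single cells is described, so each line is 1 edited population and its share of intact alleles is not given by the counts. Each of 2 experiments holds 1 library of KO1 and 1 of KO2, and the WT reference has 1 library in experiment 1 and 2 in experiment 2. Those of experiment 2 are titled WT1 and WT2, and whether these are separate control lines is not given. The labels do not say that libraries come from separate cultures, so p-values measure the spread between these libraries. The comparison asks which expression differences from WT cells the lines made with different guides do not share.

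KMT2D is a methyltransferase that places the first methyl group on lysine 4 of histone H3, mostly at enhancers, the distal elements that set which genes a cell type uses. It works in a complex with core partners that all KMT2 enzymes share and with partners such as KDM6A and PAXIP1 that only KMT2C and KMT2D use. In squamous epithelium the enzyme is known for its part in keratinocyte differentiation, and its gene is often mutated in HNSCC.

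Depth ranged from 15669154 to 62968057 counts per library in glucose, and the experiment 2 libraries, which were counted from both mates of a read pair, were the deeper ones. Levels below are in CPM, the count of a gene divided by the TMM-scaled library total and given per 1e+06 counts. Of 10 markers of squamous epithelium, 9 passed the filter on low counts, and the summed level of all 10 was 2730 and 3220 CPM in KO1, 3190 and 3340 CPM in KO2 and 3600 to 4570 CPM in WT (experiments 1 and 2 in this order here and below). KRT6A, the other marker, had at most 6 counts in a library. Markers of blood cells summed to at most 1.37 CPM, with PTPRC and HBB at 0, and those of endothelium to at most 5.08 CPM. Markers of fibroblasts and muscle summed to 31.5 CPM in KO1, 23.6 CPM in KO2 and at most 10.7 CPM in WT in experiment 2, and the lines had the same order in experiment 1, with 16.2 CPM in KO2 and 12.7 CPM in WT. Among them COL1A2 was 0 and 5.61 CPM in KO1, 0 and 3.4 CPM in KO2 and 0 to 0.895 CPM in WT, at 0 in every library of experiment 1. None of the 6 fibroblast and muscle markers tested was called between the lines by edgeR or DESeq2. In bulk RNA a smaller share of cells that use a gene and less RNA of it per cell cannot be told apart.

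The 2 lines differed in many genes, and several cancer-testis genes, the basal keratin KRT5, the protease MMP14 and the scavenger receptor OLR1 were among those that separated them most. Of 21850 genes tested, 3215 (14.7%) passed an adjusted p of 0.05 between KO1 and KO2, 1599 (7.32%) higher and 1616 (7.4%) lower in KO1, and 692 (3.17%) differed by at least 2-fold, 425 higher and 267 lower in KO1. These p-values, like all adjusted p-values below, were computed by the quasi-likelihood F test of edgeR with experiment as a block and adjusted after Benjamini and Hochberg over all genes tested, and a gene is said to be called where it passed. The median log2 difference, KO1 minus KO2, was -0.02 over all genes tested, and the median size of a called difference was 0.57. The line difference was measured in each experiment from its own pair of libraries. Over all 21850 genes tested the values of the experiments had a correlation of 0.381. Over the 14247 genes with at least 1 CPM it was 0.742. Genes are not independent replicates. Of the called genes, 3210 differed in the same direction in both experiments. The calls were made from these same libraries, so this count was largely set by the selection.

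The calls rest on the pairing by experiment and on each KO library. Without experiment in the model only 11 genes were called, among them MAGEA3, SOHLH2, EVC2, OLR1 and AGPAT4. Fewer genes were called when a single KO library was left out, 1094 without KO2 and 1526 without KO1 of experiment 2, and 1928 without KO2 and 2026 without KO1 of experiment 1. At 2-fold or more, 410 genes were called without KO2 of experiment 2. Scaling by total counts alone left 3073 genes called but put 65% of them higher in KO1, against 49.7% with TMM, and the median of all genes was then 0.05. Where leave-out counts of calls are given for a gene list, they are the counts without a single KO library. Their order is KO1 and KO2 of experiment 1, then KO1 and KO2 of experiment 2. Calls of a gene list are to be read against the 14.7% called of all genes. The share called rose with transcript length. In equal groups of tested genes by length it was 5.86% (short), 16.8% (middle) and 21.5% (long). Only 168 of the 3215 called genes had under 1 CPM on average in the KO libraries. Of the 21850 genes tested, 14247 had at least 1 CPM. A share of up to 21.5% thus does not set a list apart from long genes. Lists were not compared with genes of like length or level.

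Either line could be the one that left the WT level. Of all genes tested, 32.0% were called between KO1 and WT and 34.6% between KO2 and WT, comparisons that share the WT libraries. These are 6993 and 7563 genes, and 3933 and 4239 of all genes were called without that line's library of experiment 2. A called gene was assigned to a line where that line's distance from WT was over 2 times that of the other line in both experiments. By this rule KO1 departed in 697 of the 3215 genes and KO2 in 968. Of the genes assigned to neither line, WT lay between the lines in both experiments in 614, and 936 were mixed. A gene with WT between the lines, such as ALDH2, could thus be assigned to 1 line. Where KO2 departed, 544 genes were lower in KO2 and 424 higher, and where KO1 departed, 312 were higher in KO1 and 385 lower.

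The largest differences were of an on and off kind. MAGEA12, CSAG1 and DDX53, germ cell genes of chromosome X that carcinomas can switch on and that are called cancer-testis antigens, had no count in either KO2 library. MAGEA12 was 50.6 and 41.6 CPM in KO1 and at most 0.0872 CPM in a WT library, which puts KO1 at least 1100.0-fold above the level of 3 counts over both KO2 libraries (edgeR adjusted p = 3.90e-11). CSAG1 was 31.2 and 18.8 CPM in KO1, at least 539-fold higher than in KO2, and DDX53, an RNA helicase, was 6.68 and 9.14 CPM, at least 219-fold higher. MAGEA3 was 60.9 and 81.7 CPM in KO1, 0.406 and 0.32 CPM in KO2 and 1.9 to 2.49 CPM in WT, so KO1 lay above and KO2 below every WT library (log2 difference 7.72 ± 0.23 SE, edgeR adjusted p = 1.13e-12). MAGEA6 was 15.3 and 5.4 CPM in KO1 and had 2 counts in all in KO2, a ratio of 281 with a 95% counting interval of 77.8 to 2320.0, but it and MAGEA3 are near-identical copies, and how reads were split between them is uncertain. These genes were on in the KO1 libraries of both experiments and far lower in all other glucose libraries. Counts of experiment 2 include both mates of a read pair, and these folds and intervals cover counting error only.

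Of 25 cancer-testis genes listed, 6 were tested. A gene such as MAGEA12, near 0 in WT and KO2, passed the filter on low counts only through KO1. The share called, 83.3% against 14.7% of all genes, was thus in part set by the filter and is a description. Of the 6 tested, 4 were higher and 1 lower in KO1 (leave-out counts 5, 5, 5 and 5). The exception was PRAME, a regulator of retinoic acid signalling, at 0.189 and 0.415 CPM in KO1, 3.81 and 8.2 CPM in KO2 and at most 0.17 CPM in WT (log2 difference -4.32 ± 0.43 SE, edgeR adjusted p = 3.25e-06). MAGEB2, which WT cells already used at 62.3 to 85.4 CPM, was 81.3 and 63.6 CPM in KO1 and 48.8 and 29.1 CPM in KO2, so here KO2 was the line below WT (this gene was chosen after its values were seen). SOHLH2, a transcription factor of germ cells, was 12.9 and 17.2 CPM in KO1, 0.152 and 0.178 CPM in KO2 and 0.509 to 0.64 CPM in WT (log2 difference 6.51 ± 0.31 SE, edgeR adjusted p = 4.09e-10). BEX5, a small protein of neural tissue, was 3.97 and 2.64 CPM in KO1 with no count in KO2 or WT, at least 73.5-fold higher than in KO2, and its call was lost with DESeq2 (log2 difference 9.22).

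The start regions of the MAGEA genes are shown because the genes were on together in KO1. In RefSeq's 300-base start windows (GRCh38.p14, 250 bases before to 50 after the start) the copies of MAGEA3 and MAGEA6 had 0 differences. A run of 24 bases, in capitals below, was the longest that MAGEA3, MAGEA6 and MAGEA12 shared in the searched part of these windows. The stretches lie at chrX:152698678-152698737 (plus strand), chrX:152769746-152769805 (minus strand) and chrX:152733715-152733774 (plus strand), and are written 5′ to 3′.
MAGEA3: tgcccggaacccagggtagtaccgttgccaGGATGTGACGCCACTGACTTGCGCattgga
MAGEA6: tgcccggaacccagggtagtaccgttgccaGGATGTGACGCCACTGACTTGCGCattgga
MAGEA12: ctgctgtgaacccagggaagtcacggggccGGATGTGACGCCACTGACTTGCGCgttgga
On either strand the run occurs in 11 of 35116 start windows (0.0313%), all of them of 9 genes of this MAGEA and CSAG cluster, and CSAG1 starts on the opposite strand beside MAGEA12, so its window holds the same copy. Of these 9 genes 5 were tested, and all 5 were called higher in KO1. CSAG1, MAGEA12, MAGEA2 and MAGEA6 were at or near 0 in WT and KO2 and passed the filter on low counts only through KO1. The filter thus largely set that tested members were higher in KO1, and their count is no support. MAGEA2 was 2.27 and 0.224 CPM in KO1 with no count in KO2 or WT (edgeR adjusted p = 0.00566). MAGEA2 has a near-identical copy, MAGEA2B, with which reads may be shared. The call of MAGEA2 was lost without the KO2 library of experiment 1 (log2 difference 6.46). The run was picked from genes already known to differ, so the match is a description. The windows hold 13 to 15 CG pairs in the 250 bases before the start in MAGEA3, MAGEA6 and MAGEA12.

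**Figure D1:**
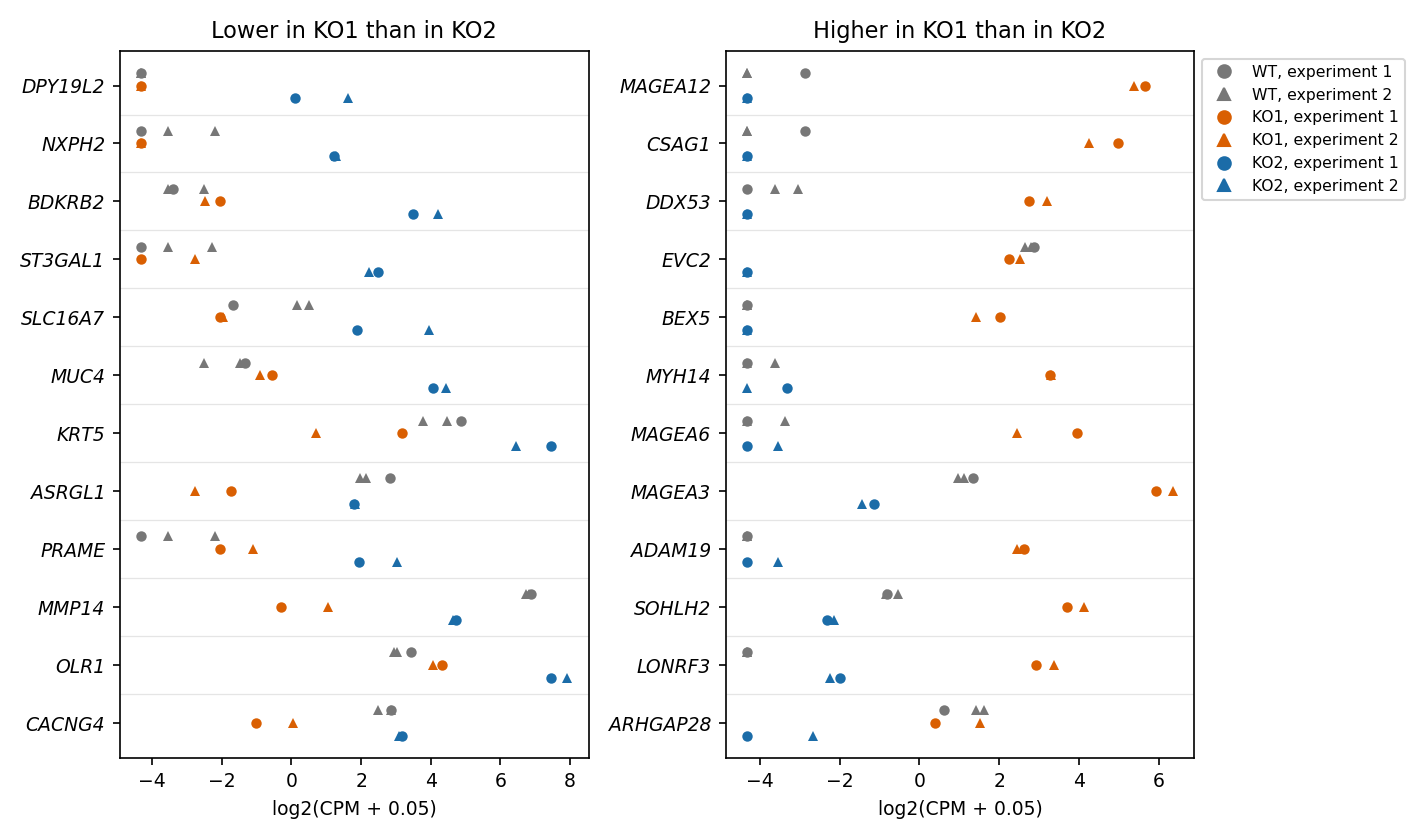
Level in each of the 7 glucose libraries, as log2(CPM + 0.05), of 12 genes in each direction. They had the largest called differences among named genes of at least 1 CPM that differed in the same direction in both experiments. Circles are experiment 1 and triangles experiment 2. For MAGEA12 the KO1 points lie at 50.6 and 41.6 CPM with both KO2 points at 0.

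The other genes at the head of the list came from several families. MYH14, a nonmuscle myosin heavy chain, was 9.52 and 9.78 CPM in KO1 against 1 count in all in KO2 and at most 0.0309 CPM in WT, a ratio of 738 to KO2 with a 95% counting interval of 132 to 29200.0. ADAM19, a membrane metalloprotease, was 6.12 and 5.4 CPM in KO1 against 0 in WT and 2 counts in all in KO2 (ratio 210.0, 95% counting interval 58.2 to 1740.0). LONRF3, a RING finger protein, was 7.57 and 10.3 CPM in KO1, 0.203 and 0.16 CPM in KO2 and 0 in WT. In these genes KO1 had gained expression. EVC2, a protein of the primary cilium, shows the reverse case, a loss in KO2: it was 4.67 and 5.7 CPM in KO1 and 6.2 to 7.28 CPM in WT but had no count in either KO2 library, at least 139-fold lower than KO1 (edgeR adjusted p = 1.16e-08).

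Several of the genes highest in KO2 over KO1 were gains of KO2 over WT. BDKRB2, a receptor for bradykinin, was 11.2 and 18.5 CPM in KO2, 0.189 and 0.128 CPM in KO1 and at most 0.123 CPM in WT (log2 difference -6.84 ± 0.37 SE, edgeR adjusted p = 1.98e-09). MUC4, a membrane mucin, was 16.8 and 21.9 CPM in KO2 against 0.631 and 0.479 CPM in KO1, and ST3GAL1, a sialyltransferase that caps mucin-type glycans, was 5.54 and 4.66 CPM against 0 and 0.0959 CPM. OLR1, a scavenger receptor for oxidised lipoprotein, was 174 and 243 CPM in KO2, 19.9 and 16.6 CPM in KO1 and 7.59 to 10.7 CPM in WT (log2 difference -3.54 ± 0.16 SE, edgeR adjusted p = 3.61e-10). SLC16A7, a monocarboxylate transporter, was 3.66 and 15.3 CPM in KO2 and 0.189 and 0.208 CPM in KO1 with WT between them in each experiment. NXPH2, a secreted neuronal protein, and DPY19L2, a protein of the sperm acrosome, had no count in KO1 and were 2.29 and 2.37 CPM and 1.02 and 3.06 CPM in KO2, at least 61.3-fold and 66.2-fold higher. The call of DPY19L2 was lost without the KO2 library of experiment 2 and with DESeq2 (log2 differences of -8.36 and -8.64).

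In other genes KO1 had lost what WT and KO2 expressed. MMP14, the membrane-anchored protease that activates other matrix proteases, was 107 to 118 CPM in WT, 26.5 and 24.8 CPM in KO2 and 0.757 and 2.01 CPM in KO1, below WT in both lines but much further in KO1 (log2 difference -3.92 ± 0.19 SE, edgeR adjusted p = 4.23e-10). ASRGL1, an asparaginase, was 0.252 and 0.0959 CPM in KO1 against 3.4 and 3.47 CPM in KO2 and 3.87 to 7.02 CPM in WT. CACNG4, an auxiliary subunit of ion channels, was 0.441 and 0.975 CPM in KO1 against 8.99 and 8.49 CPM in KO2 and 5.53 to 7.15 CPM in WT. For both genes KO1 lay below every other glucose library.

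The targeted gene itself differed between the lines. KMT2D lies on chromosome 12 from 49018978 to 49060794 of GRCh38, and its mRNA was 187 and 194 CPM in KO1, 339 and 391 CPM in KO2 and 277 to 289 CPM in WT. The line difference was -0.94 ± 0.08 (SE) on the log2 scale (edgeR adjusted p = 7.87e-07), and the KO1 and KO2 libraries lay on opposite sides of WT without overlap. Counts over a gene do not show whether an edited allele still makes protein. For the KMT2D-KO SCC23 cells the study reports KMT2D mutations by sequencing and the knockout of the protein by western blot. It also reports no effect of the loss on KMT2A, KMT2B and KMT2C, by qRT-PCR and western blot of KO against WT cells. The median line difference of the 50-gene window that holds KMT2D was -0.45, so most genes around it were lower in KO1 as well, by a smaller amount.

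Of 19 KMT2 methyltransferases and complex partners, all tested, 1 was higher and 5 were lower in KO1, 31.6% against 14.7% of all genes, with a median of -0.15. Among the 6 catalytic subunits the other one called was SETD1B, at 73.5 and 57 CPM in KO1, 109 and 91.6 CPM in KO2 and 85 to 121 CPM in WT (log2 difference -0.63 ± 0.09 SE, edgeR adjusted p = 0.000122), in a window with a median of -0.50. KMT2C, the closest relative of KMT2D, had a difference of -0.16 (edgeR adjusted p = 0.263) and KMT2A one of 0.11 (edgeR adjusted p = 0.472). Of the partners of KMT2C and KMT2D, KDM6A, a demethylase of lysine 27 of histone H3, was lower in KO1 by a log2 difference of -0.43 ± 0.12 (SE) and PAXIP1 by -0.40 ± 0.10 (SE). Of the shared subunits, DPY30 was lower (-0.34) and HCFC1 higher (0.24). KDM6A, PAXIP1, DPY30 and HCFC1 each lost the call when a KO library was left out, with values of -0.43 to -0.25, -0.40 to -0.33, -0.39 to -0.28 and 0.21 to 0.27 (leave-out counts of the list 4, 2, 2 and 2). Of the 6 called members of the list 4 lie in the stretches of chromosomes described below, where 36.7% of genes were called. None of the 5 demethylases of lysine 4 of histone H3 was called by edgeR or by DESeq2.

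**Figure D2:**
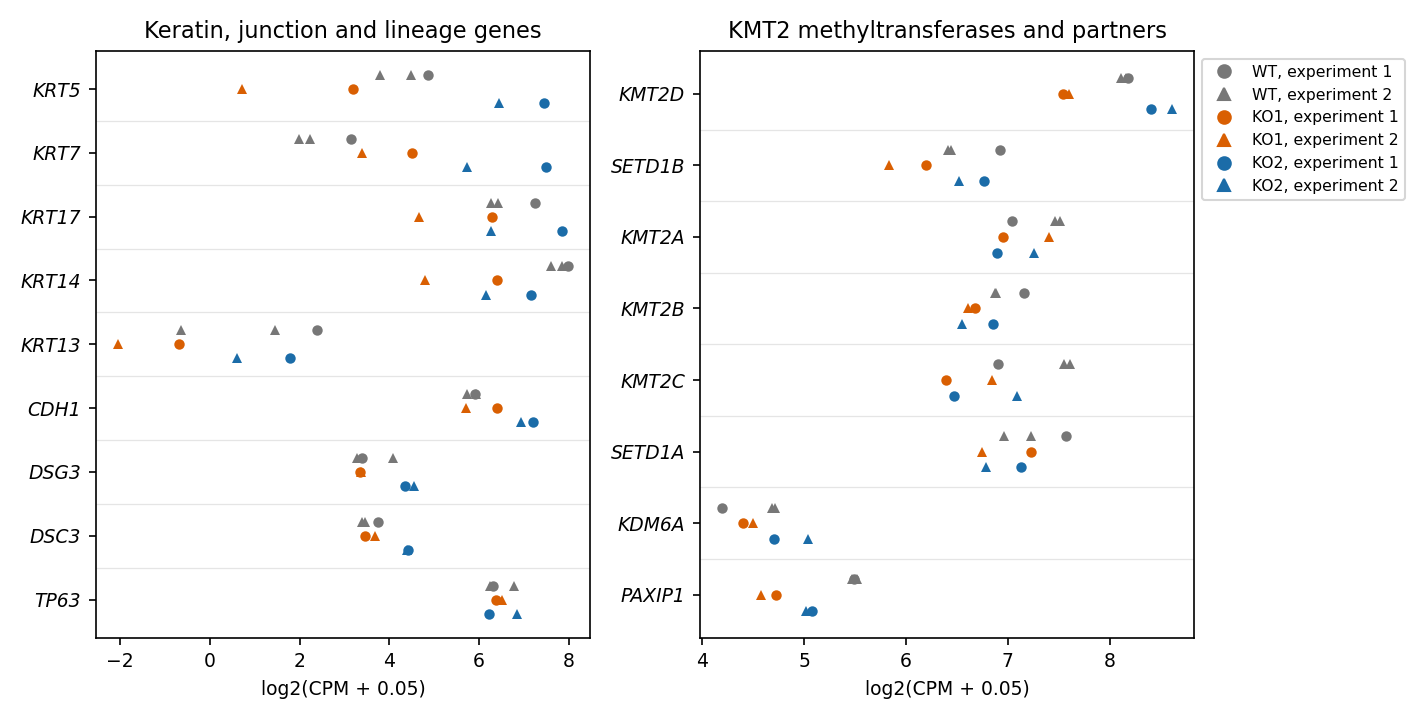
Level in each glucose library, as log2(CPM + 0.05), of keratin, junction and lineage genes on the left and of KMT2 methyltransferases and partners on the right. Circles are experiment 1 and triangles experiment 2. KRT5 and KRT7 separate the lines most on the left, and on the right KMT2D lies below WT in KO1 and above WT in KO2.

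Keratins, the intermediate filament proteins that mark the layer and state of an epithelium, were mostly lower in KO1 where called. Of 14 tested, 8 were lower and 1 higher in KO1 (64.3% called, leave-out counts 8, 9, 7 and 6), and their median difference was -0.54. Of the 9 tested markers of squamous epithelium, which share KRT5, KRT14 and KRT17 with the keratin list, 6 were lower and none higher by edgeR, with a median of -1.01. KRT5, the keratin of the basal layer, was 9.02 and 1.58 CPM in KO1, 174 and 86.7 CPM in KO2 and 13.7 to 29 CPM in WT, so WT lay between the lines (log2 difference -4.98 ± 0.30 SE, edgeR adjusted p = 7.67e-09). Its partner KRT14 was below WT in both lines, at 85.1 and 27.8 CPM in KO1, 143 and 70.9 CPM in KO2 and 194 to 253 CPM in WT. KRT17, a keratin of stressed epidermis, was 78.6 and 25.3 CPM in KO1 against 231 and 76.7 CPM in KO2 and 77.4 to 153 CPM in WT (log2 difference -1.58 ± 0.14 SE, edgeR adjusted p = 7.99e-07). KRT7, a keratin of simple epithelia, was 22.8 and 10.4 CPM in KO1, 180.2 and 52.8 CPM in KO2 and 3.93 to 8.77 CPM in WT, above WT in both lines and most in KO2 (log2 difference -2.67 ± 0.15 SE, edgeR adjusted p = 4.00e-09). The one that was higher in KO1 was KRT19 (0.66, chosen after its values were seen), at 249 and 167 CPM in KO1 and 184 and 90.3 CPM in KO2. The calls of KRT13 (log2 difference -2.76) and KRT19 were lost without the KO2 library of experiment 2 (-2.52 and 0.40) and that of KRT14 without the KO1 library of experiment 2 (-0.54) and with DESeq2 (-1.01). Of the 9 called keratins 5 lie in the stretches of chromosomes described below.

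Genes of cell contacts were also lower in KO1 where called. Of 18 genes of desmosomes and adherens junctions, 6 were lower and none higher in KO1 by edgeR. The list had 33.3% called, against 14.7% of all genes, and a median of -0.22, and DESeq2 called 7. E-cadherin, CDH1, was 84.2 and 52.4 CPM in KO1, 147 and 123 CPM in KO2 and 53 to 61 CPM in WT, so KO2 lay above all other libraries (log2 difference -1.01 ± 0.12 SE, edgeR adjusted p = 1.81e-05). The desmosomal cadherins DSG3 (10.1 and 10.3 CPM in KO1, 20.3 and 23.3 CPM in KO2) and DSC3 (11 and 12.7 CPM in KO1, 21.2 and 20.9 CPM in KO2) showed the same order, with WT at 9.68 to 17 and 10.4 to 13.3 CPM. TP63, the lineage factor of squamous cells, did not pass the test (82.9 and 91 CPM in KO1, 74.5 and 115 CPM in KO2, edgeR adjusted p = 0.722), and none of 8 tested genes of late epidermal differentiation was called by edgeR or DESeq2. The junction list had leave-out counts of 4, 4, 4 and 3.

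Proteases and matrix genes differed in both directions. Of 13 proteases tested in the matrix list, 5 were higher and 1 lower in KO1, and of 9 inhibitors none was higher and 3 were lower, 40.9% of the list in all. MMP1, a collagenase, was 409.8 and 415 CPM in KO1, 49.1 and 28.1 CPM in KO2 and 114 to 237 CPM in WT, above every WT library in KO1 and below in KO2 (log2 difference 3.45 ± 0.29 SE, edgeR adjusted p = 4.44e-07). MMP3, which cleaves many matrix proteins, was 1694 and 2029.7 CPM in KO1 and 295 and 424 CPM in KO2, both above the 91.3 to 193 CPM of WT (log2 difference 2.39 ± 0.19 SE, edgeR adjusted p = 1.55e-07). MMP12, an elastase, was 5.55 and 5.96 CPM in KO1 and 1.37 and 0.907 CPM in KO2, with WT near KO1 at 4.14 to 5.14 CPM. Leave-out counts of the list were 10, 9, 8 and 8.

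Of 19 genes of hemidesmosomes, laminins and integrins, 5 were higher and 2 lower in KO1 (36.8% called, against 14.7% of all genes). LAMA3, the laminin chain that anchors epithelium to its basement membrane, was 118 and 116 CPM in KO1 and 50.2 and 51.1 CPM in KO2 (log2 difference 1.22 ± 0.22 SE, edgeR adjusted p = 0.000798), a call lost without the KO2 library of experiment 2 (0.94). LAMA4, a laminin chain of other tissues and not a member of the list, was 22.1 and 26.3 CPM in KO1 against 1.98 and 2.56 CPM in KO2 and 2.16 to 3.5 CPM in WT. The collagen-binding integrin ITGA2 was 119 and 234 CPM in KO1, 65.6 and 102 CPM in KO2 and 231 to 569.5 CPM in WT, below the WT of the same experiment in both lines and lowest in KO2, and the fibronectin-binding ITGA5 was 63.1 and 48.9 CPM against 31.3 and 24.9 CPM (log2 difference 0.99 ± 0.14 SE). The list had leave-out counts of 6, 6, 5 and 2.

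Of 20 tested genes of mesenchymal transition, 2 were higher and 3 lower in KO1. VIM, the filament protein of mesenchymal cells, was 378 and 454 CPM in KO1, 163 and 172 CPM in KO2 and 90.2 to 99.6 CPM in WT, above WT in both lines and more so in KO1 (log2 difference 1.31 ± 0.09 SE, edgeR adjusted p = 2.35e-08). TAGLN, an actin-binding protein of smooth muscle, went the other way, at 33 and 15 CPM in KO1, 275 and 121 CPM in KO2 and 10.9 to 22.8 CPM in WT (log2 difference -3.04 ± 0.13 SE, edgeR adjusted p = 1.66e-10). Calls of the list went both ways, and its median was -0.11. Fibroblast and muscle markers, higher in KO1 than in KO2 in both experiments by the sums above, overlap this field, and their part in these values was not tested. Of 19 collagens tested, 5 were higher and 3 lower in KO1 (42.1% called), with leave-out counts of 5, 6, 4 and 4.

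Growth factor genes were lower in KO1 where called. Of 20 tested genes of FGF, insulin-like and other growth factors, none was higher and 8 were lower in KO1 by edgeR. The list had 40.0% called, against 14.7% of all genes, and a median of -0.42, and DESeq2 also called 8. FGFR2, a receptor for fibroblast growth factors, was 4.73 and 4.17 CPM in KO1, 22.4 and 27.8 CPM in KO2 and 5.19 to 9.28 CPM in WT (log2 difference -2.55 ± 0.21 SE, edgeR adjusted p = 2.68e-07). The binding proteins IGFBP3 (77.9 and 44.4 CPM in KO1, 161 and 88.7 CPM in KO2) and IGFBP4 (52.7 and 43.5 CPM in KO1, 113 and 90.0 CPM in KO2) were also higher in KO2. In the TGF-beta and BMP list 1 of 21 tested genes was higher and 3 were lower, led by the ligand TGFB2 at 7.5 and 7.19 CPM in KO1, 36.4 and 44.3 CPM in KO2 and 4.03 to 6.41 CPM in WT (log2 difference -2.47 ± 0.19 SE, edgeR adjusted p = 1.44e-07). For FGFR2 and TGFB2 the KO2 libraries lay above all others. The growth factor list had leave-out counts of 9, 7, 7 and 6 and the TGF-beta list of 3, 4, 3 and 2, and none of 12 receptors and SMADs of the latter was called by edgeR.

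In the EGFR family, 3 of 11 tested receptors and ligands were higher and 2 lower in KO1 (leave-out counts 4, 4, 4 and 2). That is 45.5% called, against 14.7% of all genes. The ligand EREG was 39.7 and 61.6 CPM in KO1, 12.1 and 22.5 CPM in KO2 and 13.1 to 27.4 CPM in WT, a gain of KO1 (log2 difference 1.57 ± 0.12 SE, edgeR adjusted p = 1.44e-07), and HBEGF was 27.9 and 38.5 CPM in KO1, 13.3 and 15.1 CPM in KO2 and 27.3 to 44.1 CPM in WT, below the WT range in KO2 (log2 difference 1.23 ± 0.20 SE, edgeR adjusted p = 0.000324). EGFR itself was 670.0 and 960.4 CPM in KO1 and 515 and 704 CPM in KO2 (log2 difference 0.41), a call lost without the KO2 library of experiment 2 (0.39). Of 11 ERK feedback genes, which ERK activity induces and which damp it, 3 were higher in KO1 and none lower by edgeR (27.3% called, leave-out counts 3, 3, 3 and 2). DUSP5, a nuclear phosphatase of ERK, was 31.5 and 34.4 CPM in KO1, 12.6 and 17.2 CPM in KO2 and 77.6 to 89.9 CPM in WT, and SPRY4, an inhibitor of receptor signalling, was 56.7 and 68.2 CPM in KO1, 30.4 and 29.3 CPM in KO2 and 49.8 to 63.7 CPM in WT. The third was DUSP4 (0.71), whose call was lost with DESeq2 and without the KO2 library of experiment 2 (0.70 and 0.53).

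Cytokines and antigen presentation were split. Of 27 cytokine, chemokine and NF-kB genes tested, 6 were higher and 6 lower in KO1 (44.4% called, against 14.7% of all genes). The interleukins and chemokines gave 6 of the higher and 2 of the lower calls, and the 4 NF-kB genes called were all lower in KO1. CXCL8, a chemokine for neutrophils, was 128 and 308 CPM in KO1, 72.1 and 139 CPM in KO2 and 133 to 189.8 CPM in WT, and CSF3, a growth factor of granulocytes, was 4.1 and 1.13 CPM in KO1 against 0.356 and 0.391 CPM in KO2 (log2 difference 2.35 ± 0.39 SE, edgeR adjusted p = 0.000408). LCN2, an iron-binding protein of inflamed epithelium, was 8.51 and 3.34 CPM in KO1 and 18.2 and 6.28 CPM in KO2, a call lost without the KO2 library of experiment 1 (-0.92). The list had leave-out counts of 9, 6, 7 and 7. Of 19 antigen presentation genes, 2 were higher and 6 lower in KO1 (42.1% called). The 6 act in class I presentation and the 2 were class II genes at low levels, HLA-DPA1 at 2.52 and 1.33 CPM in KO1 and 0.102 and 0.213 CPM in KO2 and HLA-DRB1 at 3.34 and 1.1 CPM and 0.762 and 0.0712 CPM. HLA-DRB1 is one of several similar genes, and its call was lost without either KO library of experiment 2 (2.19 and 2.12). Leave-out counts of the antigen presentation list were 6, 6, 2 and 3.

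**Figure D3:**
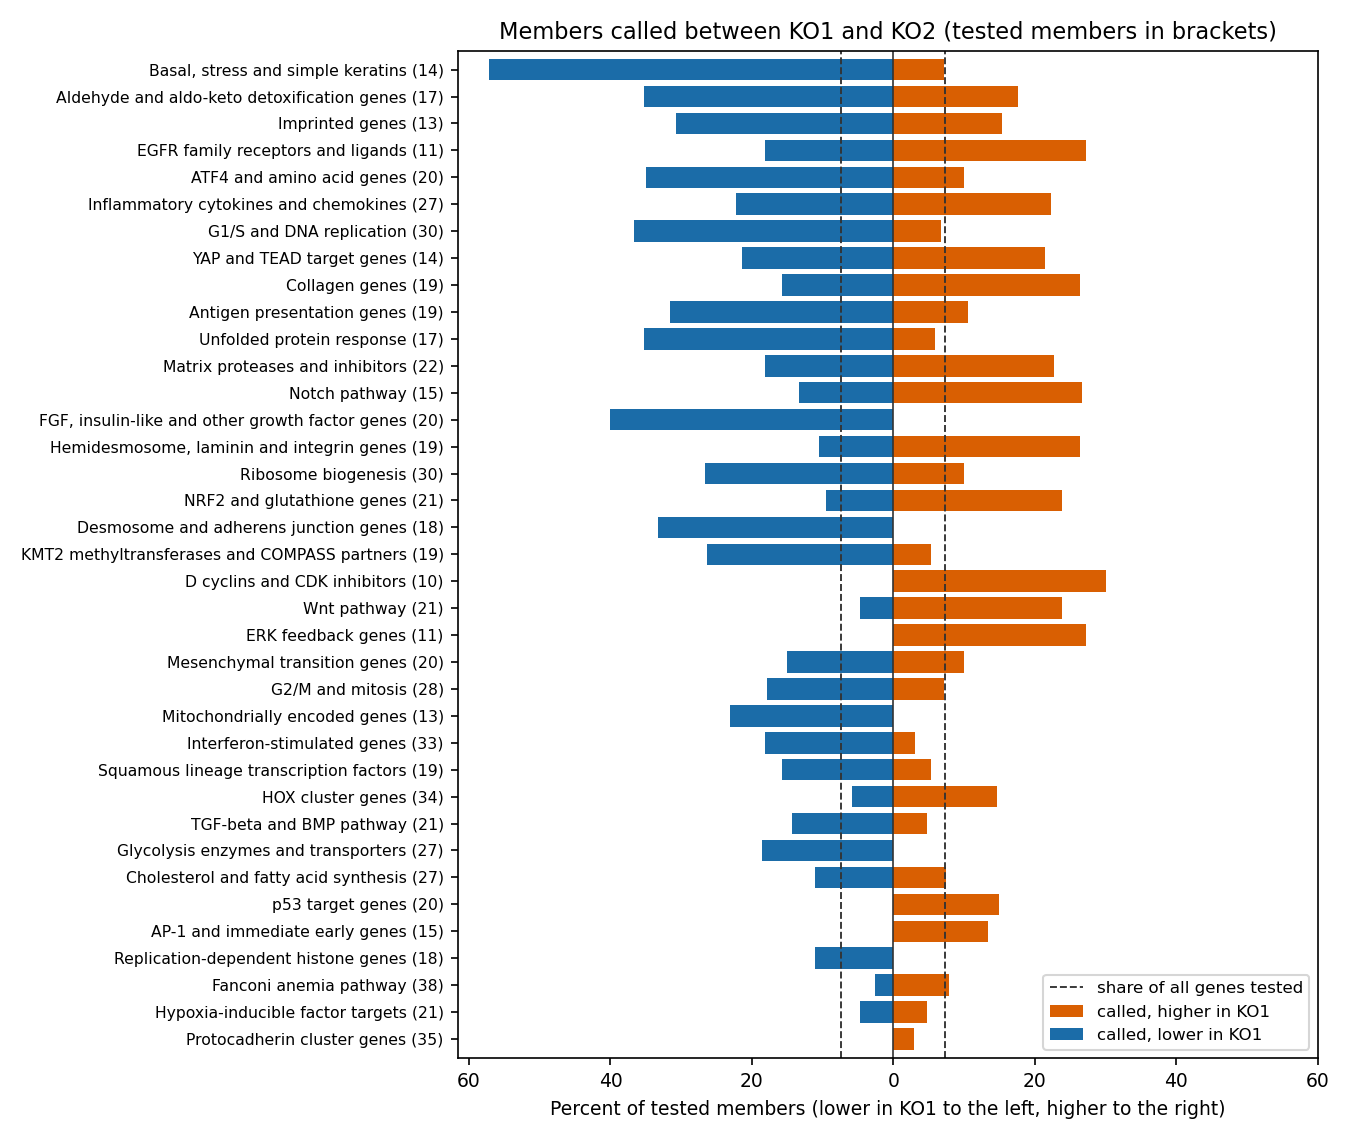
Percent of the tested members of each gene list called lower in KO1 (blue, to the left) or higher in KO1 (orange, to the right), for lists with at least 10 tested members. The dashed lines mark 7.4% and 7.32%, the shares of all genes tested. Keratins reach furthest to the left, with 8 of 14 lower, and the growth factor and junction lists have none to the right.

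Among cell cycle genes the G1/S list held the most calls, where 2 of 30 were higher and 11 lower in KO1 (43.3% called, median -0.12). MCM7, a subunit of the replicative helicase, was 319 and 225 CPM in KO1 and 450.1 and 321 CPM in KO2, and GINS2, another helicase subunit, was 89.9 and 64 CPM and 134 and 90.3 CPM. RRM2, the ribonucleotide reductase subunit that peaks in S phase, went against the list at 479.7 and 543 CPM in KO1, 254 and 305 CPM in KO2 and 649 to 843 CPM in WT (log2 difference 0.88 ± 0.08 SE, edgeR adjusted p = 1.10e-06), and it lies in a window of chromosome 2 with a median of 0.94. CDKN1A, the inhibitor p21, was 46 and 47.3 CPM in KO1, 22.3 and 17.3 CPM in KO2 and 35.1 to 80.3 CPM in WT (log2 difference 1.28 ± 0.20 SE, edgeR adjusted p = 0.000325). It was 1 of 3 of 10 D cyclins and CDK inhibitors called, all higher in KO1. The G1/S list had leave-out counts of 7, 6, 6 and 5, and 8 calls with total counts alone, and the inhibitor list had leave-out counts of 1, 1, 1 and 1.

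Glycolysis and the Fanconi anemia (FA) pathway, which repairs DNA crosslinks, are the themes of the study. Of 27 glycolysis genes tested, 5 were lower in KO1 and none higher by edgeR (18.5% called, against 14.7% of all genes, median -0.17), and DESeq2 called 7. They were PFKM (-0.51 ± 0.09 SE), LDHA (-0.33), PKM (-0.31), PFKP (-0.28) and GAPDH (-0.22, chosen after its values were seen), all log2 differences. GAPDH was 3209 and 2287 CPM in KO1, 3593 and 2786 CPM in KO2 and 2047 to 2896 CPM in WT, and its call (edgeR adjusted p = 0.0494) was lost without any 1 of the KO libraries (-0.29 to -0.16). The list had leave-out counts of 3, 1, 0 and 0, 8 calls without the third WT library and 2 with total counts alone. Of 7 genes of glycolysis and glutathione synthesis that the study singles out, none passed the edgeR test, and their differences ran from -0.24 for LDHB to 0.62 for HKDC1 (edgeR adjusted p = 0.278). Of the 38 FA genes tested, 3 were higher and 1 lower in KO1 (10.5%, below the 14.7% of all genes). They were SLX4 (0.39), REV1 (0.44) and REV3L (0.29), which act in unhooking or bypassing a crosslink, and BRIP1 (-0.59), a helicase. The FA list had leave-out counts of 3, 2, 1 and 1 and 7 calls without the third WT library. Of the 9 FA genes the study singles out, only REV3L passed, a call lost without any 1 of the KO libraries (0.19 to 0.38) and without the second WT library (0.31), and the others ran from -0.26 for POLQ to 0.08 for FANCI.

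Detoxification genes gave larger differences. Of 21 tested NRF2 and glutathione genes, 5 were higher and 2 lower in KO1 (33.3% called). AKR1C1, a reductase of steroids and aldehydes, was 28.8 and 108 CPM in KO1, 6.96 and 31 CPM in KO2 and 1.48 to 12.1 CPM in WT, above the WT library of the same experiment in both lines (log2 difference 1.91 ± 0.25 SE, edgeR adjusted p = 5.76e-05), though its reads may be shared with close AKR1C copies. ALDH2, the mitochondrial aldehyde dehydrogenase, was 11.5 and 9.7 CPM in KO1, 1.52 and 1.58 CPM in KO2 and 5.51 to 7.33 CPM in WT, so the lines left WT in opposite directions (log2 difference 2.72 ± 0.21 SE, edgeR adjusted p = 1.20e-07). ALDH3A1, an aldehyde dehydrogenase of surface epithelia, was 11.3 and 6.09 CPM in KO1 and 30.7 and 16.2 CPM in KO2. The NRF2 list had leave-out counts of 4, 5, 4 and 4 and 11 calls without the third WT library.

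Other pathways are given by their calls, to be read against the 14.7% called of all genes, with the limits on length and level given above. Of 17 tested genes of the unfolded protein response, which raises the folding capacity of the endoplasmic reticulum, 6 were lower and 1 higher in KO1 (leave-out counts 6, 5, 3 and 2), and of 20 genes of ATF4 and amino acid supply 7 were lower and 2 higher (4, 7, 7 and 3). SHMT2, an enzyme of mitochondrial one-carbon metabolism, was 244 and 208 CPM in KO1 and 406 and 317 CPM in KO2, and SLC7A5, a transporter of large amino acids, was lower in KO1 by a log2 difference of -0.61 ± 0.12 (SE). The call of SLC7A5 was lost without the KO1 library of experiment 1 and the KO2 library of experiment 2 (-0.42 and -0.45). PDIA6, a disulfide isomerase, was the exception in the first list, at 305 and 242 CPM in KO1 and 152 and 135 CPM in KO2, and it lies in a window with a median of 0.64. In ribosome biogenesis 8 of 30 were lower and 3 higher (3, 3, 4 and 2).

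Among developmental pathways, 5 of 21 tested Wnt genes were higher and 1 lower in KO1 (28.6% called, leave-out counts 3, 2, 2 and 1), and 4 of 15 Notch genes were higher and 2 lower (3, 3, 2 and 1). The ligands WNT7A, at 25.5 and 22.1 CPM in KO1 and 9.96 and 6.4 CPM in KO2, and WNT10A, at 4.1 and 4.2 CPM and 9.15 and 10.2 CPM, went in opposite directions, and the call of WNT10A was lost without the KO2 library of experiment 2 (-0.80). Of 34 HOX genes 5 were higher and 2 lower (20.6% called against 14.7% of all genes, leave-out counts 5, 4, 2 and 2), including HOXB13 at 14.4 and 13.5 CPM in KO1, 7.37 and 4.96 CPM in KO2 and 8.5 to 10.2 CPM in WT. Of 13 imprinted genes 2 were higher and 4 lower (46.2% called, leave-out counts 5, 4, 3 and 4), and of 33 interferon-stimulated genes 1 was higher and 6 were lower (21.2% called, leave-out counts 3, 4, 5 and 5).

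The differences were not spread evenly over the genome. The median line difference over all genes of a chromosome was -0.34 on chromosome 12, where 332 of 364 called genes were lower in KO1, and 0.19 on chromosome 6, where 239 of 280 were higher. On chromosome 7 it was -0.17, on chromosome 18 0.16 and on chromosome X 0.15, and the remaining nuclear chromosomes lay between -0.12 and 0.07. The genes of mitochondrial DNA had a median of -0.26, and 3 of 13 protein genes were called, all lower in KO1 (leave-out counts 5, 2, 2 and 2, and 5 and 7 calls without the first and the third WT library).

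To place the shifts, tested genes were taken in map order in 424 windows of 50 genes (longer at chromosome ends), and a stretch was set, after the values were seen, as at least 2 adjacent windows whose medians were 0.2 or more in size, with 1 sign, in both experiments. There were 14 such stretches on 7 chromosomes, 8 higher and 6 lower in KO1. They held 3365 genes, 15.4% of those tested, and 1235 called genes, 38.4% of those called. Inside them 36.7% of genes were called, against 10.7% outside. Of the 692 called genes that differed by at least 2-fold, 26.6% lay inside. The window limit used the differences themselves, so these shares are a description. With genes of at least 1 CPM only, 10 stretches were found.

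On chromosome 12 the stretch ran from 43560784 to 133214832, most of the long arm, in 16 windows with 821 genes. There 690 genes (84.0%) were lower in KO1, with medians of -0.35 in experiment 1 and -0.48 in experiment 2. Against WT the windows up to 94549536 had KO2 medians of 0.24 to 0.68 and KO1 medians of -0.09 to 0.23, and the windows beyond had KO1 medians of -0.59 to -0.38 and KO2 medians of -0.21 to 0.04. KMT2D, KRT5, KRT7, SLC16A7, SETD1B and ALDH2 lie in this stretch. ALDH2 and SLC6A15, a transporter of amino acids, were among the 10 genes called there in the other direction. The call of SLC6A15 was lost without any 1 of the KO libraries (1.52 to 2.54).

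On chromosome 6 the stretch ran from 57961438 to 170584692, nearly the whole long arm, in 10 windows. Of its 513 genes 431 (84.0%) were higher in KO1, with medians of 0.51 and 0.50 in the experiments, and the median was 0.14 for KO1 and -0.35 for KO2 against WT. Its called genes included AGPAT4, an acyltransferase of phospholipid synthesis, at 4.22 and 4.87 CPM in KO1, 0.406 and 0.285 CPM in KO2 and 3.7 to 3.97 CPM in WT. RRAGD, a GTPase of the amino acid sensing pathway of mTORC1, was 4.16 and 5.91 CPM in KO1, 0.864 and 0.801 CPM in KO2 and at most 0.0617 CPM in WT. DLL1, a Notch ligand of the same arm, was against the direction of its neighbours (log2 difference -1.36 ± 0.18 SE, edgeR adjusted p = 4.98e-05).

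Chromosome 2 held 3 stretches. From 38814 to 27489805 on the short arm 135 of 150 genes (90.0%) were higher in KO1 with a median of 0.66, which was 0.06 for KO1 and -0.59 for KO2 against WT. The first window alone had 0.94. FAM110C, the first gene of the stretch, was 20.9 and 25.7 CPM in KO1, 4.93 and 6.96 CPM in KO2 and 28.6 to 44 CPM in WT, and SLC66A3, a lysosomal transporter family member, was 6.94 and 8.42 CPM, 0.457 and 1.07 CPM and 6.59 to 7.8 CPM in the same order. From 72175984 to 85649283 the median was -0.28, and from 96248514 to 131836532 it was 0.50, where the interleukin receptor gene IL1R1 was 2.96 and 4.62 CPM in KO1 against 0.152 and 0.142 CPM in KO2 and at most 0.154 CPM in WT.

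On chromosome 7 the short-arm stretch from 27193503 to 55433742 was higher in KO1 (median 0.41), and 4 stretches of the long arm were lower (medians of -0.40 to -0.29). Their KO1 medians against WT were -0.52 to -0.42 and their KO2 medians -0.22 to -0.03. PEG10, an imprinted gene derived from a retrotransposon, was 98.3 and 111 CPM in KO1, 186 and 291 CPM in KO2 and 216 to 319.6 CPM in WT. On chromosome X the stretch from 103596608 to 156025710 had a median of 0.52, from a KO1 median of 0.64 and a KO2 median of 0.12 against WT, and it holds MAGEA3, MAGEA6, MAGEA12 and CSAG1. Further stretches lay at 2 places of chromosome 1 (medians of 0.25 and 0.37) and on chromosome 18 (0.36), where DSG3 and DSC3 went against their neighbours.

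**Figure D4:**
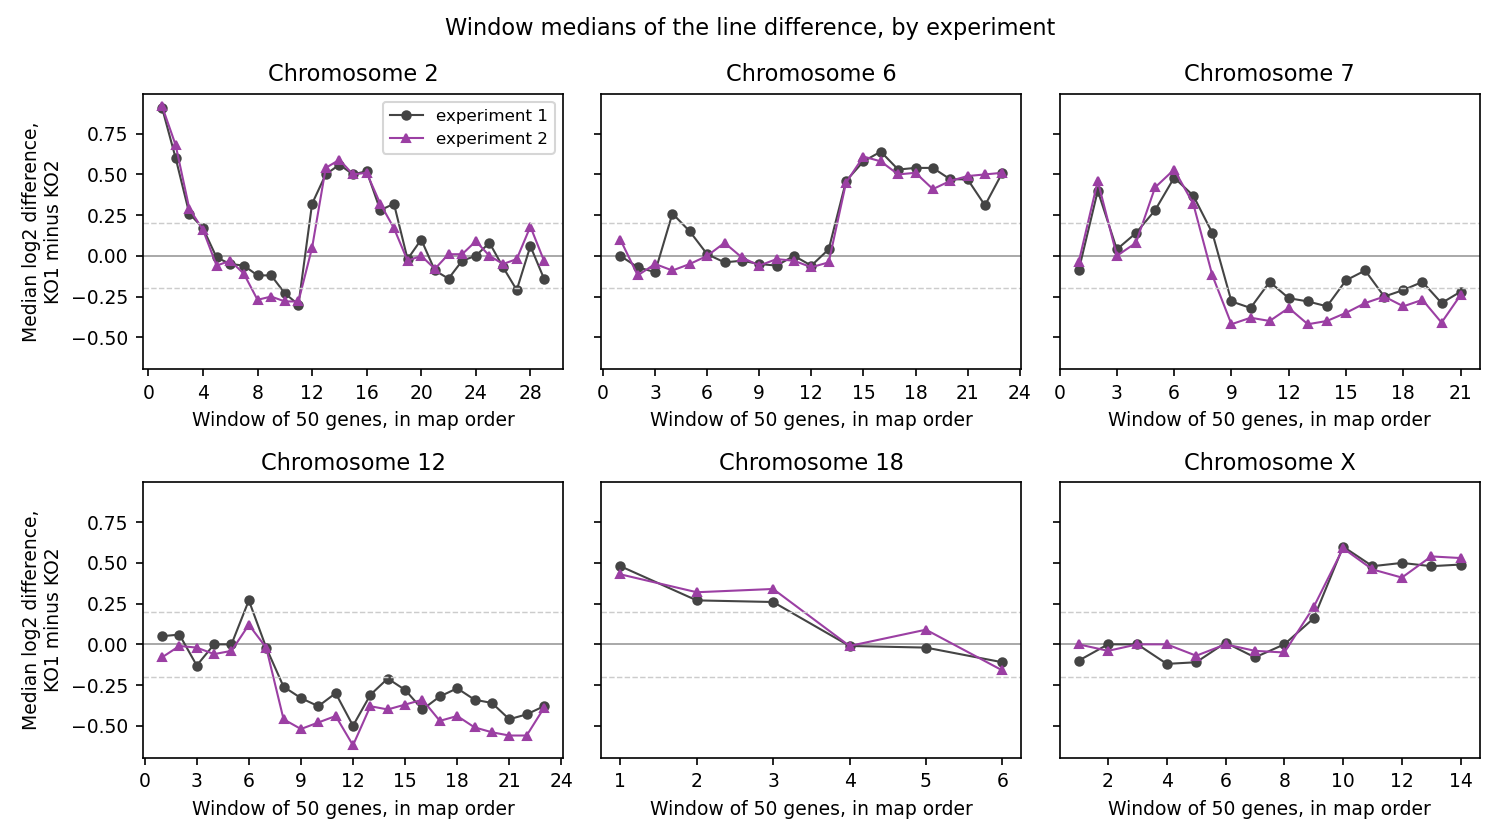
Median log2 difference, KO1 minus KO2, of consecutive windows of 50 tested genes in map order on 6 chromosomes, with experiment 1 as circles and experiment 2 as triangles. Dashed lines mark -0.2 and 0.2. The experiments, which share no library of KO1 or KO2, follow each other along each chromosome, with steps between level runs on chromosomes 2, 6, 7, 12 and X.

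**Figure D5:**
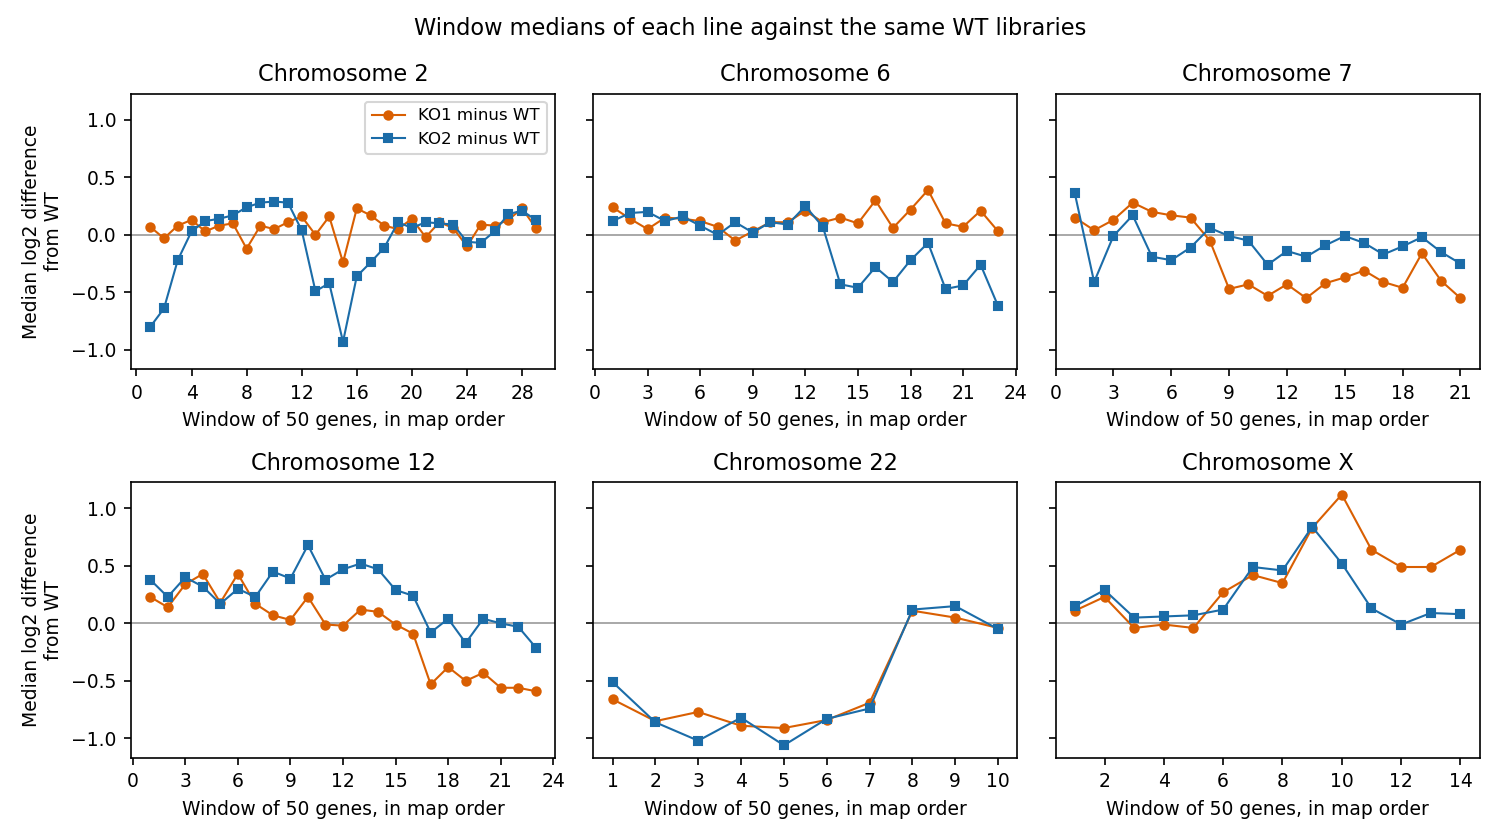
Median log2 difference of each line from WT, from the same fit, in the same windows on 6 chromosomes, with KO1 as circles and KO2 as squares. Both comparisons use the same WT libraries. On the long arm of chromosome 6 KO2 lies below WT, on that of chromosome 7 KO1 lies lowest, and in the first 7 windows of chromosome 22 both lines lie below WT.

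Shifts against WT were also found in both lines with little line difference. In the first 7 of 10 windows of chromosome 22, from 15784959 to 40043534, the median was -0.91 to -0.66 for KO1 and -1.06 to -0.51 for KO2, while the line difference stayed between -0.14 and 0.08.

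The glucose-deprived pair of experiment 1, 1 KO1 and 1 KO2 library, has no replicate and was not used in the fit. Of the 3215 called genes 2546 (79.2%) differed there in the same direction, and the share over all genes tested is not given here. MAGEA12 was 58.7 and 0 CPM in KO1 and KO2, KRT5 14.2 and 209.6 CPM, OLR1 20.2 and 130.0 CPM and MMP14 0.52 and 19 CPM. The stretch on the long arm of chromosome 6 had a median of 0.49 in this pair and that of chromosome 12 one of -0.30. Other differences were smaller or absent in this pair. The chromosome 2 stretch from 72175984 to 85649283 had a median of 0.0, against -0.28 in glucose. The chromosome 18 stretch had 0.11 against 0.36, and ADM a difference of 0.06 against -1.15. KMT2D was 18.3 and 177 CPM, a log2 difference of -3.27, and SETD1B, KMT2C and KMT2A were also lower in KO1 there, by -3.02, -1.74 and -1.70. With the tested genes split into 3 equal groups by transcript length, the median over the longest was -0.15 in the deprived pair, against 0 for the shortest, and the part of length in these values was not tested. In glucose the medians of the short, middle and long groups were -0.05, -0.03 and 0.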

How the data were processed

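Reads of polyA RNA were aligned by the authors to GRCh38 with HISAT2, and the deposited values are raw counts per gene from featureCounts 2.0.3, 1 table per library. Per the file headers, the 4 glucose libraries of experiment 2 were counted from both mates as separate reads, so their counts are not independent molecules. The 7 glucose libraries (3 WT, 2 KO1, 2 KO2) were fitted together with edgeR 4.0.16 in R 4.3.3 (filterByExpr minimum count of 10, TMM, quasi-likelihood F test, 3 residual degrees of freedom), with experiment as a replicate block. Levels are given in CPM after TMM scaling. The study used DESeq2 and states no covariate, and DESeq2 1.42.0 with experiment was an alternative here. Experiment numbers were taken as pairs because the labels give them as shared experiments. The difference of experiment 1 from experiment 2 was also taken per line. Over genes it correlated at 0.771 between KO1 and KO2, 0.778 between KO1 and WT and 0.797 between KO2 and WT. The experiments differ in depth and in the counting of mates in every line, so these correlations cannot show that libraries are paired. Calls have a Benjamini-Hochberg adjusted p under 0.05.

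The comparison, the gene lists and the rules were chosen with earlier results of these data known. Named genes were the KMT2 list, up to 4 called members of each list and genes the study singles out. Up to 8 called genes per stretch and genes on opposite sides of WT were also named. So were the 12 largest called differences in each direction at 1 CPM or more with the same direction in both experiments. GAPDH, KRT19, MAGEB2 and MAGEA2 were added after their values were seen. On simulated counts for KO1 against KO2 over 21850 genes, edgeR found 42.4%, 58.6% and 79.7% of genes changed by 1.5, 2 and 4-fold, with 4% of calls false. The changed genes numbered 66, 70 and 64. The counts were drawn independently from the dispersion trend that edgeR fitted, with no mates counted as separate reads. The 4% is thus not the error rate of the calls given here. Alternatives were other scalings, filters, models and left-out libraries. Of the glucose-deprived libraries, 4 were left out of all results, including the KO libraries of experiment 2, whose labels are in doubt. Start windows are from RefSeq, whose build matches that of the count files.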

Additional observations from a re-analysis of the deposited data

Results flagged for a closer look

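In 154 of the 3215 called genes KO1 and KO2 were each called against WT but in opposite directions, 87 with KO1 above and KO2 below WT and 67 the reverse, and the test of the difference is the call between KO1 and KO2 itself, by edgeR's quasi-likelihood test. Of the 154, 81 lie in the stretches of chromosomes whose genes moved together. Those of the genes named by the rule are given here as log2 differences, KO1 minus KO2. Highest in KO1 were the germ cell genes MAGEA3 (7.72) and SOHLH2 (6.51) and the nuclear receptor partner NRIP3 (4.17), followed by the collagenase MMP1 (3.45), the aldehyde dehydrogenase ALDH2 (2.72) and the homeobox gene HOXB13 (1.23). The chemokine CXCL8 (1.01), the disulfide isomerase PDIA6 (0.92), the malic enzyme ME1 (0.84) and the RNA polymerase I subunit POLR1B (0.49) differed less. Lowest in KO1 were the transporter SLC16A7 (-5.88), the keratin KRT5 (-4.98), the urothelial gene UPK3B (-2.84) and the receptor FGFR2 (-2.55). The Notch ligand DLL1 (-1.36), the peptide hormone ADM (-1.15), the BMP target ID3 (-1.01), the targeted gene KMT2D (-0.94) and the helicase BRIP1 (-0.59) were lower in KO1 by smaller amounts. NRIP3 was 4.16 and 3.66 CPM in KO1, 0.102 and 0.267 CPM in KO2 and 1.07 to 1.67 CPM in WT, and UPK3B was 0.378 and 0.351 CPM, 2.08 and 2.9 CPM and 1.44 to 1.56 CPM.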

How the results depend on the processing

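Precision is limited by 2 libraries per line and 3 residual degrees of freedom, and for genes near 0 by counts of a few reads. With experiment left out of the model (no replicate block) edgeR called 11 genes between KO1 and KO2, 8 higher and 3 lower in KO1, all 11 at 2-fold or more, 530 between KO1 and WT and 576 between KO2 and WT. Under total counts alone 1077 genes were lower in KO1. Other settings with all 7 libraries and the block kept the count of called genes between 3073 and 3483, and the 4 KO libraries alone gave 4574. Without 1 library at a time the called genes ranged from 1094 to 3974, those higher in KO1 from 619 to 1933, those lower from 475 to 2041, those at 2-fold or more from 410 to 727, those between KO1 and WT from 3933 to 6997 and those between KO2 and WT from 4239 to 7571, and a line left with 1 library was assumed to vary like the other groups. The lowest counts were those without the KO2 library of experiment 2, except 3933, which was without the KO1 library of experiment 2. Chromosome medians moved to -0.1 for chromosome 7 and 0.1 for chromosome 18 in experiment 1 alone and to -0.2 for mitochondrial genes in experiment 2 alone. With distance factors of 1.5 and 3 in place of 2, chosen after seeing the data, the mixed class held 417 and 1557 genes, and with 3 KO1 departed in 389 and KO2 in 532. Over the named genes and these alternatives 1427 values kept their direction and side of the threshold, 167 kept the direction but lost the call, and POLQ (-0.25 with the 4 KO libraries alone, experiment as a block) gained one. The difference changed sign for COL1A2 without the KO1 library of experiment 2 (-0.81, in a range of -0.81 to 1.06 without 1 library at a time) and for TP63 without the KO1 or the KO2 library of experiment 2 (0.03 and 0.13, in a range of -0.31 to 0.13), neither of them called. The cause of these changes was not tested.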

Other observations

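Gene lists not described above are given here by their calls between KO1 and KO2, from the same edgeR fit. They are to be read against the 14.7% called of all genes, with the limits on length and level given above. Of 17 tested aldehyde and aldo-keto detoxification genes 3 were higher and 6 lower in KO1, of 14 YAP and TEAD target genes 3 were higher and 3 lower, and of 19 squamous lineage transcription factors 1 was higher and 3 were lower. Of 28 genes of G2/M and mitosis 2 were higher and 5 lower. Cholesterol and fatty acid synthesis gave 2 higher and 3 lower of 27, all in the cholesterol arm, and none of these calls held without the KO1 or the KO2 library of experiment 1. The p53 target list, with 3 higher of 20, and AP-1 and immediate early genes, with 2 higher of 15 (13.3%), had shares near that of all genes. There were 1 higher and 1 lower of 21 hypoxia-inducible factor targets (9.52%) and 2 lower of 18 replication-dependent histone genes (11.1%). Protocadherin cluster genes were the list with the lowest share called among those with at least 10 tested members, 1 of 35.

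Some chromosomes stood apart from WT in both lines by a like amount. The median difference from WT was 0.26 for KO1 and 0.24 for KO2 on chromosome 8, 0.20 and 0.23 on chromosome 20, -0.22 and -0.19 on chromosome 14 and -0.17 and -0.14 on chromosome 10. The comparisons share the WT libraries, so a difference that lies in WT itself cannot be told apart from one shared by the lines.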
